A study of Mus musculus with 4 samples.

Results

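Carriers that move amino acids across the plasma or lysosomal membrane of T cells were followed in sorted mouse regulatory T cells: Slc3a2, Slc7a5, Slc7a6, Slc43a2, Slc1a5, Slc38a1, Slc38a2, Slc7a1, Slc38a9 and Slc38a10. They are 10 of the 52636 genes counted, taken by symbol as transporters used by T cells. Slc43a2 was selected on its read counts in the comparison made here, so its values are given as a description with no test. All 10 had enough reads to be tested, which Slc43a2 reached through the group where it was high. The libraries come from mice labelled Vav1R63WThemis1-T-/- and Vav1R63W. The Vav1R63WThemis1-T-/- label names mice with the R63W knock-in allele of the signalling adaptor Vav1 that also lack Themis1 in T cells. The Vav1R63W mice carry the same knock-in allele, so no library comes from cells with normal Vav1. All mice were C57BL/6 and 7 weeks old, and the cells were sorted as CD4+ and CD25bright. What drives the T cell deletion, and whether animals were pooled, is not given in the sources used here.

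Amino acid carriers set how much leucine, glutamine and arginine a T cell can take up, and activated T cells raise several of them to feed protein synthesis and the growth kinase complex mTORC1. The CD98 heavy chain, encoded by Slc3a2, is not a pore itself: it carries light chains such as the products of Slc7a5 (LAT1, for large neutral amino acids) and Slc7a6 (y+LAT2) to the cell surface. Slc1a5 (ASCT2), Slc38a1 (SNAT1) and Slc38a2 (SNAT2) bring in glutamine and other small neutral amino acids, Slc7a1 (CAT1) brings in arginine and lysine, and Slc43a2 (LAT4) is a carrier of large neutral amino acids that needs no partner chain. The product of Slc38a9 sits in the lysosome and senses arginine for mTORC1, and that of Slc38a10 is a less studied relative of the SNAT proteins.

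RNA was sequenced from 2 libraries per group, numbered 2 and 3 in each, with 13963670 to 15953194 reads assigned to genes. Themis, the targeted gene, had 685 and 0 reads in the libraries labelled Themis1-T-/-, replicates 2 and 3, against 283 and 97 in Vav1R63W replicates 2 and 3. Replicate 2 labelled Themis1-T-/- goes against its label, so directions below are between labels, and those of the transporters and of the gene lists are also given without that library. A gene count checks the deletion only where reads fall in the deleted exons, which these files do not show. The regulatory T cell and T cell markers Foxp3, Il2ra, Ikzf2, Ctla4, Tnfrsf18, Cd4 and Cd3e were read in every library. Foxp3, the defining transcription factor, had 1014 and 737 CPM (reads per 1000000 assigned to genes) in the libraries labelled Themis1-T-/-, against 904 and 636 CPM in the Vav1R63W libraries. In the B cell list Ms4a1, Cd22, Pax5 and Blnk were unread, whereas Cd79b was read in every library. The list summed to 52.2 and 62.8 CPM under the Themis1-T-/- label against 96.3 and 78.4 CPM in Vav1R63W. Cd79b made up most of each sum, at 35.5 and 62.7 CPM under that label against 58.3 and 63.55 CPM in Vav1R63W. Bank1 added 14.3 and 0.0716 CPM under that label against 28.3 and 9.515 CPM in Vav1R63W. Cd79a added 2.38 and 0 CPM under that label against 9.64 and 5.35 CPM in Vav1R63W. Of the 8 monocyte and macrophage markers Ly6c2 alone was read, at 19.2 and 23.2 CPM under the Themis1-T-/- label against 8.43 and 5.56 CPM in Vav1R63W. Cd8a had no read, and Cd8b1 had 30.3 and 19.3 CPM under the Themis1-T-/- label against 26.1 and 38.6 CPM in Vav1R63W. Of 8 erythroid and platelet markers 4 had no read, with sums of 8.65 and 27.1 CPM under the Themis1-T-/- label against 9.14 and 0.0695 CPM in Vav1R63W. Itga2b alone made up 21.7 CPM of the sum in replicate 3 labelled Themis1-T-/-, and had 0 reads in replicate 2 of that label. The part of these other cell types in the values below was not tested. The edgeR quasi-likelihood test, with p-values adjusted over all genes, called 0 of 10216 genes (0%), with 509 (4.98%) at an unadjusted p under 0.05, while limma-voom called 0 and DESeq2 called 206 (1.92%), of which 121 were lower in the libraries labelled Themis1-T-/- (1.13% of those tested). In bulk RNA, fewer cells that express a gene and less RNA of it per cell cannot be told apart.

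The sequences that matter most for reading the data lie at the starts of Slc43a2 and Slc38a10, because there a gene on the opposite strand shares their exons. Both are shown from 250 bases before the start of the transcript to 30 bases after it, with the transcribed bases in capitals. They are RefSeq sequences of build GRCm38.p6. The Slc43a2 window is chr11:75531444-75531723, plus strand, and the Slc38a10 window is chr11:120151322-120151601, minus strand.
Slc43a2: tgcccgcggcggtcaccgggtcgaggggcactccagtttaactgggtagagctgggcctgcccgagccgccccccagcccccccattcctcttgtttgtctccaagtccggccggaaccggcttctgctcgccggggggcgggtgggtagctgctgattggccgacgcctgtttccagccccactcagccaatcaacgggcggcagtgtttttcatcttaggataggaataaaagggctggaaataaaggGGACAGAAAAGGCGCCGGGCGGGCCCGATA
Slc38a10: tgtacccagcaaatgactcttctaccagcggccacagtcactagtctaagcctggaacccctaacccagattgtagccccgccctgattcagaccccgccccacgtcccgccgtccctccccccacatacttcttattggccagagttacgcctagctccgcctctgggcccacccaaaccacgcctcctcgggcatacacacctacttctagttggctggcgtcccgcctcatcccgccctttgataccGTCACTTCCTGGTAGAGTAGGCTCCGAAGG
The whole Slc43a2 window lies within the single exon of Gm45606, an antisense gene on the minus strand (GRCm38 chromosome 11, 75530277 to 75533071). The Slc38a10 window lies within an exon of Gm11769, a noncoding gene on the plus strand (GRCm38 chromosome 11, 120150562 to 120152341). RefSeq start windows of 300 bases were found for 7 of the 10 transporters, in 10 windows. The amino acid response motif TGATGNAA was in 0 of the 10, and in 3.97% of all 32851 windows on either strand. The Myc motif CACGTG was also in 0 of the 10, against 7.15% of all windows. The AP-1 motif TGACTCA or TGAGTCA was in 1, that of Slc7a1, against 5.2% of all. A loose form of the NF-kB motif (GGG, then 5 of any base, then CC) was in 6 of the 10 windows, those of Slc43a2 and Slc38a10 among them, against 50.8% of all. CCAAT was in 4 of the 10, again with Slc43a2 and Slc38a10, against 37.4% of all. Both strands were searched and motifs may overlap; a match describes letters in a window and is not a site.

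Slc43a2 (ENSMUSG00000038178, GRCm38 chromosome 11, 75531694 to 75577575, plus strand) had the largest difference between labels among the transporters. In the count without regard to strand, it had 1 and 1 reads in the libraries labelled Themis1-T-/-, against 214 and 1084 in Vav1R63W replicates 2 and 3. The Vav1R63W libraries differed from each other 4.93-fold, at 15.3 and 75.3 CPM. Scaled by library totals, the summed reads were 684-fold lower under the Themis1-T-/- label. The exact 95% binomial interval, from 189 to 5651, covers counting error at most. In the authors' deposited table Slc43a2 had a log2 fold change of -1.42 and an adjusted p of 0.00890, and 1.56% of the genes with an adjusted p there were called. Since the gene was selected on these reads, that p describes it and is no test. That table and these counts share the same reads, and the sizes come from different fits. For the other 9 transporters the authors' deposited table gave log2 fold changes of -0.20 (Slc38a2) to 0.34 (Slc38a9) and adjusted p-values of 0.917 or more.

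The strand columns showed where in Slc43a2 the remaining reads lie. A read in an exon shared by genes on opposite strands is left out of the count without strand but enters a strand column, so the sum of the strand columns minus the count without strand gives the shared reads. By that measure the exons shared with Gm45606 held 191 and 498 reads in the libraries labelled Themis1-T-/-, replicates 2 and 3, against 267 and 154 in Vav1R63W replicates 2 and 3. The groups overlap for these reads. Counted for Gm45606 instead, the same subtraction gave 191 and 499 reads in the libraries labelled Themis1-T-/-, against 267 and 154 in the Vav1R63W libraries. This match follows from the method, since the subtraction finds the same shared reads from either gene.

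**Figure D1:**
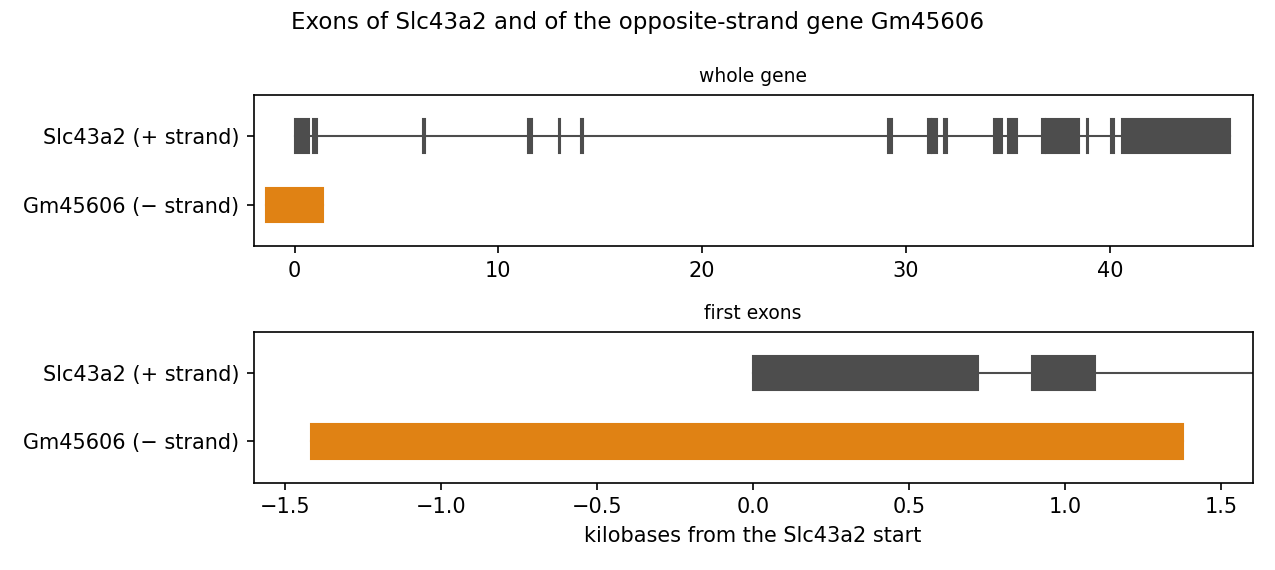
Exon blocks of Slc43a2 (grey) and of Gm45606 (orange) by distance in kilobases from the Slc43a2 start, over the whole gene and around the start. The single Gm45606 exon covers all 922 bases of the leading pair of Slc43a2 exon blocks and none of the other 9120 exon bases.

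The shared part is small. Gm45606 covers 922 exon bases of Slc43a2, all in its leading pair of exon blocks, and leaves 9120 exon bases to Slc43a2 alone. Per kilobase of exon, the shared bases had 13.0 and 38.7 CPM in the libraries labelled Themis1-T-/-, against 20.7 and 11.6 CPM in the Vav1R63W libraries. The bases of Slc43a2 alone had 0.00687 and 0.00785 CPM per kilobase in the libraries labelled Themis1-T-/-, against 1.68 and 8.26 CPM per kilobase in the Vav1R63W libraries. The difference between labels in Slc43a2 was thus in reads downstream of the shared exons, while reads over its start were present in all 4 libraries. The bases of Gm45606 outside Slc43a2 exons were read too, with 49 and 134 reads in the libraries labelled Themis1-T-/-, against 141 and 108 in the Vav1R63W libraries. Over these 1873 bases that was 1.64 and 5.12 CPM per kilobase under the Themis1-T-/- label, against 5.38 and 4 in Vav1R63W. Each library was thus lower there than over the shared bases. The library kit does not mark strand, so whether the shared reads came from Slc43a2 or from Gm45606 cannot be told apart.

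**Figure D2:**
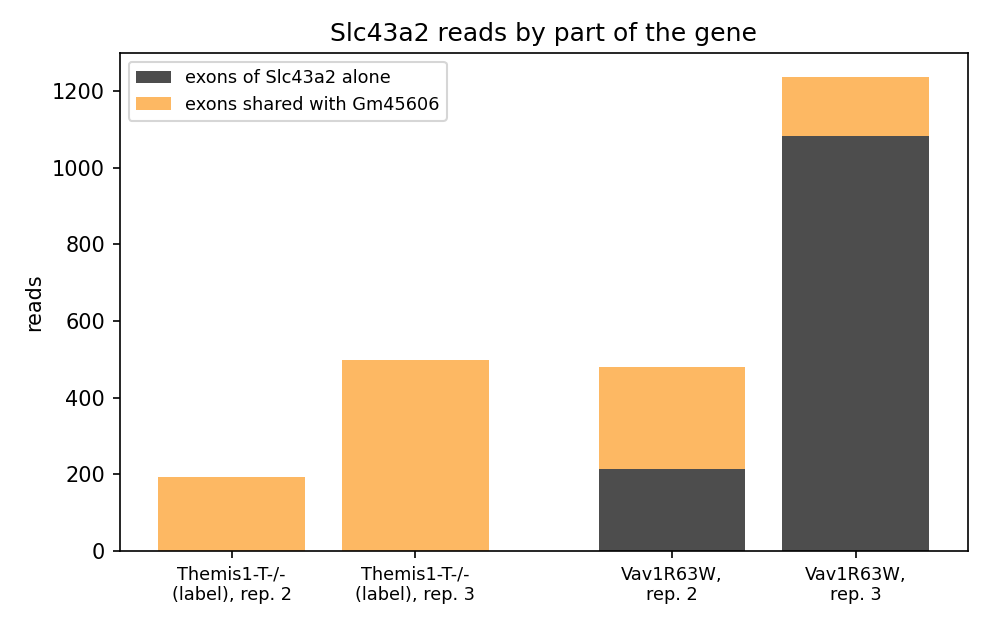
Reads of Slc43a2 in each library, split into exons of Slc43a2 alone (grey) and exons shared with Gm45606 (orange). The libraries labelled Themis1-T-/- hold 1 and 1 reads in the grey part, against 214 and 1084 in the Vav1R63W libraries, whereas the orange part overlaps between groups.

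With the strand columns summed, Slc43a2 stood at 12.04 and 35.7 CPM in the libraries labelled Themis1-T-/-, against 34.4 and 86.0 CPM in the Vav1R63W libraries. The groups then overlap, and the fitted log2 fold change is -1.30, against -9.22 in the count without strand (-9.11 if the library labelled Themis1-T-/-, replicate 2, is dropped), where the value rests on a pair of single reads and is no bound. Counts as uneven as those of Slc43a2 were found for other genes in both directions: 18 genes had at most 1 read in each library labelled Themis1-T-/- and at least 200 in each Vav1R63W library, and 9 had the reverse. Of the 18, 13 also had at most 1 read in both libraries labelled Themis1-T-/- when the strand columns were summed, and Slc43a2 was not among them. The genes with a named symbol most like Slc43a2, by Euclidean distance of centred log2(CPM + 1) over the 4 libraries, were Amigo2 (distance 0.47), Slc25a40 (0.78) and Gys1 (0.79). Amigo2 had 1 and 1 reads in the libraries labelled Themis1-T-/-, against 289 and 918 in the Vav1R63W libraries.

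Among the CD98 genes, Slc3a2 (ENSMUSG00000010095, GRCm38 chromosome 19, 8706882 to 8723369, minus strand) had 188 and 269 CPM in the libraries labelled Themis1-T-/-, replicates 2 and 3, against 154 and 308 CPM in Vav1R63W replicates 2 and 3. Both Vav1R63W libraries lie outside the range of the others, which sit between them. The difference on the log2 scale was 0.01 ± 0.44 (SE; edgeR adjusted p = 1.000), and it turned to -0.43 without Vav1R63W replicate 2, to 0.62 without Vav1R63W replicate 3, and to -0.31 leaving out the library labelled Themis1-T-/-, replicate 3. With replicate 2 of that label dropped, it was 0.26.

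Slc7a5, the light chain LAT1 (ENSMUSG00000040010, GRCm38 chromosome 8, 121881150 to 121907694, minus strand), had 25.95 and 18.55 CPM in the libraries labelled Themis1-T-/-, against 25.3 and 20.4 CPM in the Vav1R63W libraries. The groups overlap, and Slc7a5 varied least of the 10 transporters, within 1.40-fold between any pair of libraries. The difference on the log2 scale was -0.02 ± 0.82 (SE; edgeR adjusted p = 1.000), and -0.25 leaving out the library labelled Themis1-T-/-, replicate 2. Slc7a6, the light chain y+LAT2 (ENSMUSG00000031904, GRCm38 chromosome 8, 106168857 to 106198706, plus strand), had 15.7 and 51.7 CPM in the libraries labelled Themis1-T-/-, against 10.5 and 32.8 CPM in the Vav1R63W libraries. Both libraries numbered 3 lay above both numbered 2. The log2 fold change of Slc7a6 was 0.67 ± 1.06 (SE; edgeR adjusted p = 1.000), 1.29 leaving out the library labelled Themis1-T-/-, replicate 2, and -0.47 leaving out the library labelled Themis1-T-/-, replicate 3.

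Set against exon length, the heavy chain exceeded its light chains in every library. Slc3a2 was 7.62 and 15.2 times Slc7a5 per kilobase in the libraries labelled Themis1-T-/-, replicates 2 and 3, against 6.41 and 15.8 times in Vav1R63W replicates 2 and 3. Slc7a5 was 2.03 and 0.442 times Slc7a6 per kilobase in the libraries labelled Themis1-T-/-, against 2.97 and 0.768 times in the Vav1R63W libraries. Which light chain had the higher level thus followed the replicate number, with Slc7a5 above in both libraries numbered 2 and Slc7a6 above in both numbered 3. The labels do not say what libraries of equal number share, and over all tested genes the deviations of equally numbered libraries from their group means had a correlation of 0.02.

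**Figure D3:**
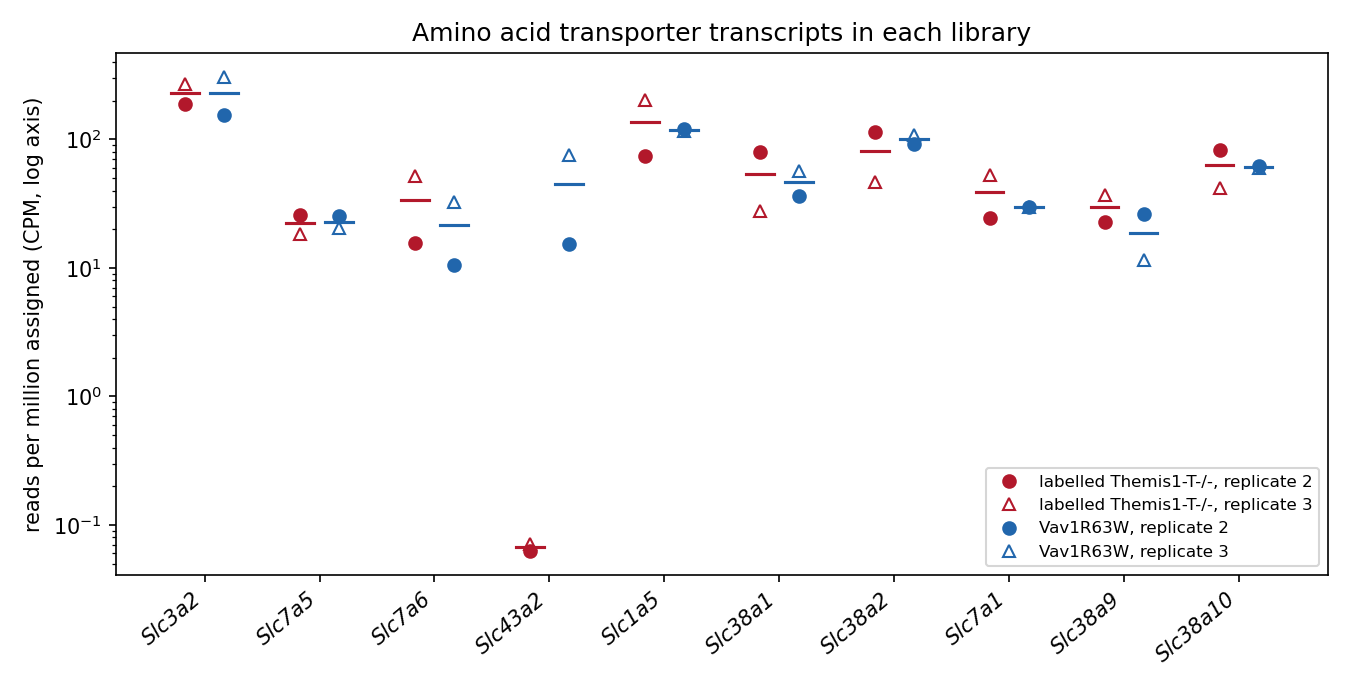
Level of each transporter in CPM (log axis) in the libraries labelled Themis1-T-/- (red) and the Vav1R63W libraries (blue), with circles for replicate 2, triangles for replicate 3 and a bar at the mean. Slc43a2 is the only gene whose groups stand apart, and for Slc7a5, Slc1a5, Slc38a1, Slc38a2, Slc7a1 and Slc38a10 the red points lie on both sides of the blue ones.

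Of the glutamine carriers, Slc1a5 (ENSMUSG00000001918, GRCm38 chromosome 7, 16781340 to 16798274, plus strand) had 73.9 and 201 CPM in the libraries labelled Themis1-T-/-, against 120 and 117 CPM in the Vav1R63W libraries. The Vav1R63W libraries were within 1.03-fold of each other, and the others lay 2.72-fold apart on either side of them. The log2 fold change of Slc1a5 was 0.25 ± 0.56 (SE; edgeR adjusted p = 1.000), and it was 0.81 leaving out the library labelled Themis1-T-/-, replicate 2 (edgeR adjusted p = 0.493), and -0.69 without replicate 3 of that label. Slc38a1 (ENSMUSG00000023169, GRCm38 chromosome 15, 96571418 to 96642913, minus strand) had the opposite order, with 79.2 and 27.9 CPM in the libraries labelled Themis1-T-/-, against 36.1 and 57.1 CPM in the Vav1R63W libraries. The difference on the log2 scale was 0.21 ± 0.70 (SE; edgeR adjusted p = 1.000), and -0.70 leaving out the library labelled Themis1-T-/-, replicate 2.

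Slc38a2 (ENSMUSG00000022462, GRCm38 chromosome 15, 96687392 to 96699730, minus strand), the neighbour of Slc38a1 on the same strand, had 115 and 47.1 CPM in the libraries labelled Themis1-T-/-, against 91.7 and 109 CPM in the Vav1R63W libraries. Replicate 3 labelled Themis1-T-/- was again the lowest library and replicate 2 the highest. The log2 fold change of Slc38a2 was -0.29 ± 0.52 (SE; edgeR adjusted p = 1.000), -1.05 leaving out the library labelled Themis1-T-/-, replicate 2 (edgeR adjusted p = 0.536), and 0.19 without replicate 3 of that label. Slc38a2 exceeded Slc38a1 per kilobase of exon in every library, by 2.83 and 3.29 times in the libraries labelled Themis1-T-/- and by 4.95 and 3.71 times in the Vav1R63W libraries. The named genes most like Slc38a1 over the 4 libraries, by the distance used for Slc43a2, were Abtb2 (0.13), Stk4 (0.15) and Oard1 (0.15). Stk4 had 332 and 106.5 CPM in the libraries labelled Themis1-T-/-, against 155 and 220 CPM in the Vav1R63W libraries.

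Slc7a1, the arginine carrier CAT1 (ENSMUSG00000041313, GRCm38 chromosome 5, 148327410 to 148399904, minus strand), had 24.5 and 53.2 CPM in the libraries labelled Themis1-T-/-, against 29.99 and 30.1 CPM in the Vav1R63W libraries. As for Slc1a5, replicate 3 labelled Themis1-T-/- was the highest library and replicate 2 the lowest, and Slc1a5 and Slc7a1 were the closest pair of the 10 genes by the same distance (0.33). The log2 fold change of Slc7a1 was 0.41 ± 0.70 (SE; edgeR adjusted p = 1.000), 0.87 leaving out the library labelled Themis1-T-/-, replicate 2, and -0.30 without replicate 3 of that label.

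The lysosomal arginine sensor Slc38a9 (ENSMUSG00000047789, GRCm38 chromosome 13, 112660751 to 112738749, plus strand) had 22.7 and 36.95 CPM in the libraries labelled Themis1-T-/-, against 26.3 and 11.5 CPM in the Vav1R63W libraries. The groups overlap, with the highest library labelled Themis1-T-/- and the lowest from Vav1R63W mice. The difference on the log2 scale was 0.70 ± 0.88 (SE; edgeR adjusted p = 1.000) and was positive whichever library was left out, from 0.24 to 1.38, with 1.02 when replicate 2 of the Themis1-T-/- label was the one left out. Slc38a10 (ENSMUSG00000061306, GRCm38 chromosome 11, 120103960 to 120151346, minus strand) had 83.6 and 42.3 CPM in the libraries labelled Themis1-T-/-, against 62.2 and 59.9 CPM in the Vav1R63W libraries. The difference on the log2 scale was 0.06 ± 0.49 (SE; edgeR adjusted p = 1.000), -0.49 leaving out the library labelled Themis1-T-/-, replicate 2, and 0.45 without replicate 3 of that label.

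The exons that Slc38a10 shares with Gm11769 had 178 and 41 reads in the libraries labelled Themis1-T-/-, against 87 and 67 in the Vav1R63W libraries. Those reads were in the same order of libraries as the reads of Slc38a10 alone, unlike in Slc43a2. The other 8 transporters had at most 1 shared read in any library. The share of reads in the strand column written earlier in the files ran from 42.4% to 53.7% over the 40 pairs of transporter and library, as from a kit without strand marking.

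Across the 9 transporters other than Slc43a2, 0 passed the edgeR test, 7 had a positive and 2 a negative log2 fold change, and each standard error exceeded the fold change itself. The sign turned for 8 of the 9, all except Slc38a9, when some library was left out. The median difference of mean log2 CPM over the 9 was 0.07, against -0.04 over all tested genes. Groups did not overlap for 1 of the 10 transporters, Slc43a2, which was chosen for it, against 33.8% of all tested genes. The standard errors allow changes of sizes that these 2 libraries per group could not show, so equal levels are not established either.

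**Figure D4:**
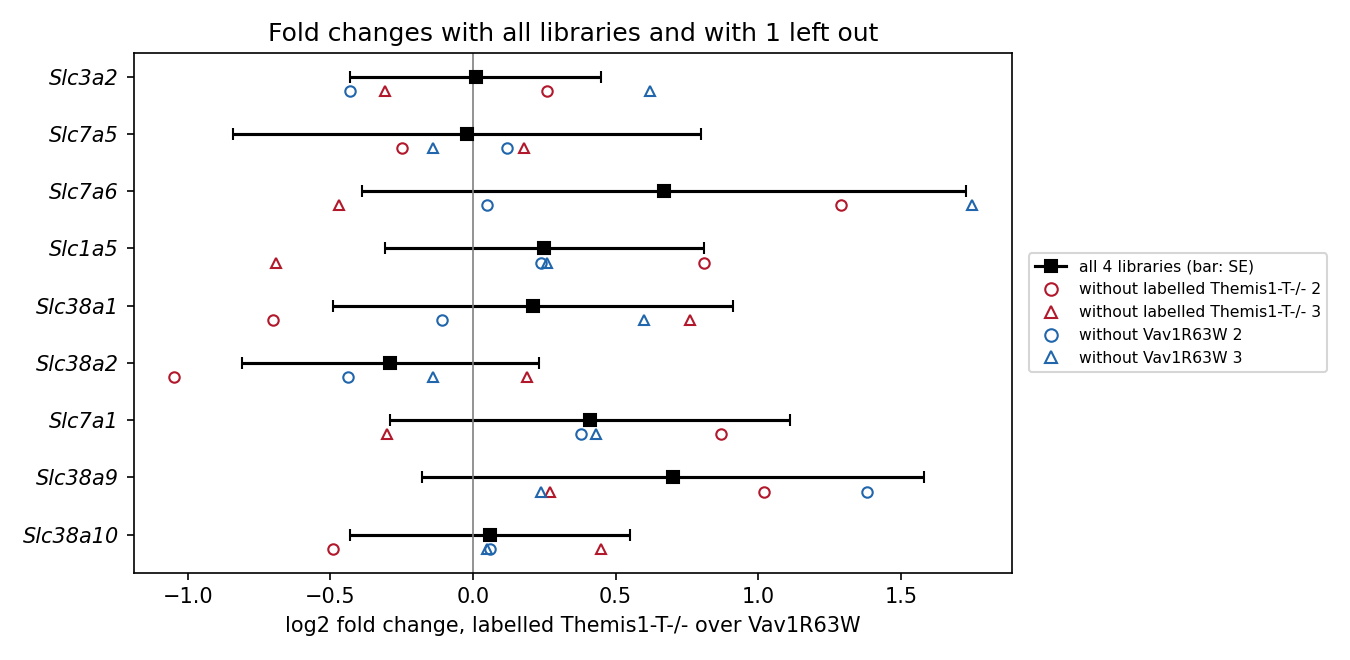
Log2 fold change of 9 transporters, libraries labelled Themis1-T-/- over Vav1R63W libraries, with all 4 libraries (squares, bars show the SE) and without each library in turn (open symbols). For every gene except Slc38a9 the open symbols lie on both sides of 0.

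The spread between the libraries labelled Themis1-T-/- was the most visible feature of these genes. For 6 of the 10 transporters (Slc7a5, Slc1a5, Slc38a1, Slc38a2, Slc7a1 and Slc38a10) the highest and the lowest of the 4 libraries were the pair labelled Themis1-T-/-, against 21.6% of all tested genes. That background was 19.9% of genes with a mean of at least 100 CPM, 19.6% at 30 to 100 CPM and 23.3% under 30 CPM. The Vav1R63W libraries were both extremes for 1 transporter, Slc3a2, against 11.8% of tested genes. For Slc7a5, Slc38a1, Slc38a2 and Slc38a10 replicate 2 was the high one, as for Themis itself, and for Slc1a5 and Slc7a1 replicate 3 was. The median fold between the libraries labelled Themis1-T-/- was 2.17 over the 9 transporters, against 1.56 over 5044 genes of 20 to 250 CPM with a read in every library. Between the Vav1R63W libraries it was 1.24 over the 9 transporters, against 1.42 over those genes. The transporters were chosen with these values known, so the shares describe them and test nothing.

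Ordered by mean CPM per kilobase of exon over the 4 libraries, Slc3a2 was first at 65.1 ± 20.1 (SD, n = 4) and Slc1a5 next at 30.7 ± 12.7. Slc3a2 was above Slc1a5 in all 4 libraries, although their ranges over libraries overlap. Slc1a5 was above Slc38a2 without overlap. Slc38a2 (10.2 ± 3.46) and Slc38a10 (9.65 ± 2.64) did not differ beyond their spread. Slc38a10 was above Slc7a5 (6.08 ± 0.979) in all 4 libraries, although their ranges overlap. Neither Slc7a5 and Slc7a6 (6.06 ± 4.08) nor Slc7a1 (2.99 ± 1.11) and Slc38a1 (2.91 ± 1.33) differed beyond their spread, each gene of a pair being above the other in 2 libraries. Slc38a9 had the lowest mean at 1.46 ± 0.629. In the count without strand, Slc43a2 had a mean of 2.26 ± 3.57 from libraries at 0.00624 to 7.5. In that count it was above Slc38a9 in 1 of the 4 libraries, Vav1R63W replicate 3, on which its place by mean rests. The count leaves out reads shared with Gm45606, while the length includes the shared bases, and the same holds for Slc38a10 with Gm11769. With the strand columns summed, Slc43a2 had 12.04 and 35.7 CPM under the Themis1-T-/- label, against 34.4 and 86.0 CPM in Vav1R63W. Its place in the order by that sum was not worked out. The lengths are of all annotated exons joined, so a gene whose cells use only short transcripts has its level understated.

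Of 41 other amino acid carriers, 22 had no read in any library, among them Slc7a11, Slc7a8, Slc38a5 and Slc1a4, and 15 could be tested. Of the 15, 0 passed the edgeR test, and mean log2 CPM was higher for 8 and lower for 7, with a median difference of 0.09. The median of fitted log2 fold changes was 0.10 with all libraries and -0.36 when replicate 2 labelled Themis1-T-/- was dropped. Slc25a22, a mitochondrial glutamate carrier, had 0 and 1 reads in the libraries labelled Themis1-T-/-, against 515 and 267 in the Vav1R63W libraries. That is 824-fold lower with an exact 95% binomial interval of 147 to 32576, for counting error at most. By the strand columns, no read of Slc25a22 was shared with a gene on the opposite strand. It was not called by edgeR (adjusted p = 0.900). DESeq2 called it lower (adjusted p = 9.76e-05), as did the authors' deposited table (adjusted p = 0.0158), the list's 1 call by each. Over all genes with an adjusted p, DESeq2 called 1.92% and that table called 1.56%. Slc16a10, a carrier of aromatic amino acids, had 62 and 49 reads in the libraries labelled Themis1-T-/- and 0 and 0 in the Vav1R63W libraries, at least 17.5-fold higher against a floor of 3 reads per library (edgeR adjusted p = 0.900). The members of that list with the highest levels were the mitochondrial carriers Slc25a12, at 81.4 and 106 CPM against 80.9 and 60.3 CPM in the Vav1R63W libraries, and Slc25a44, a carrier of branched-chain amino acids, at 34.0 and 51.7 CPM against 25.5 and 63.1 CPM in the Vav1R63W libraries.

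Genes of amino acid sensing by mTORC1, the complex that transported amino acids activate at the lysosome, were all read, and 33 of 35 could be tested. Of the 33, 0 passed the edgeR test, 11 had a positive and 22 a negative difference, and the median was -0.43, against -0.04 over all tested genes. The median of fitted log2 fold changes was -0.40 with all libraries and ran from -0.79, leaving out the library labelled Themis1-T-/-, replicate 2, to -0.11, without Vav1R63W replicate 2. Mtor, the kinase itself, had 0 and 1 reads in the libraries labelled Themis1-T-/-, against 178 and 181 in the Vav1R63W libraries, 378-fold lower (exact 95% binomial interval 67.4 to 14977, counting error only). Mtor was not called by edgeR (adjusted p = 0.900) and was called lower by DESeq2 (adjusted p = 0.0136). Over the list DESeq2 called 2 genes, Mtor included, and the authors' deposited table called 1, against 0 by edgeR. The shares called over all genes with an adjusted p were 1.92% by DESeq2 and 1.56% in that table. The highest members were Sesn1, a leucine sensor family member, at 323 and 166 CPM in the libraries labelled Themis1-T-/- against 554 and 271 CPM in the Vav1R63W libraries, and Sec13, at 252 and 341 CPM against 225 and 341 CPM in the Vav1R63W libraries.

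**Figure D5:**
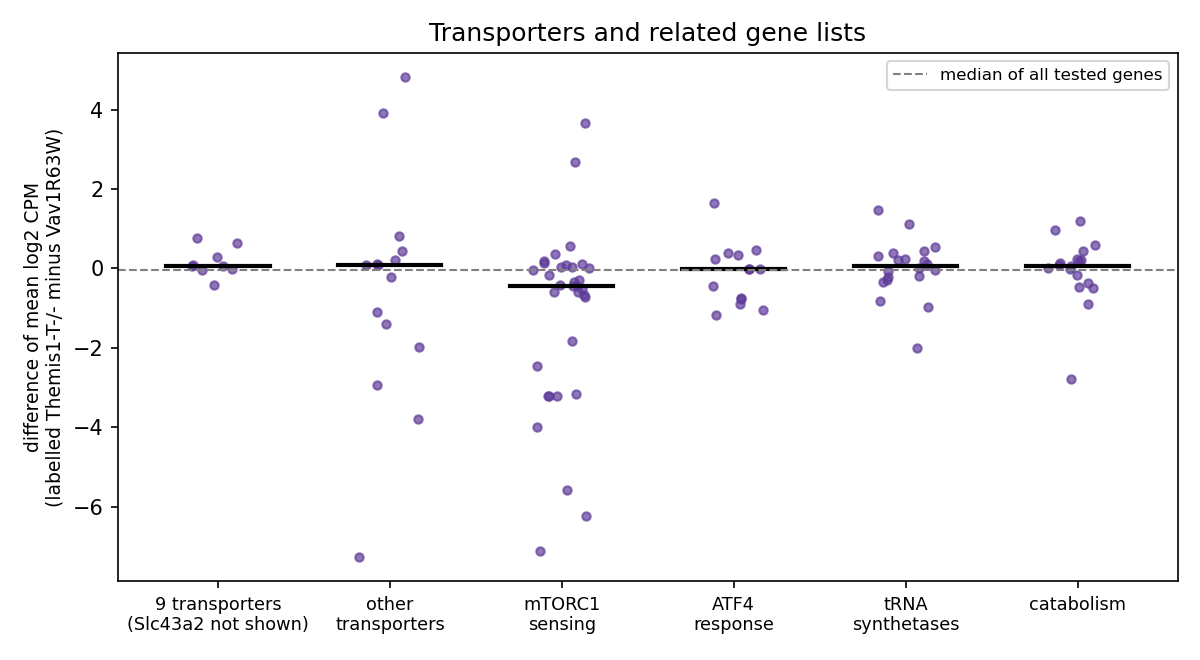
Difference of mean log2 CPM, libraries labelled Themis1-T-/- minus Vav1R63W libraries, for each tested member of the transporters other than Slc43a2 and of 5 related lists, with the list median (black bar) and the median of all tested genes (dashed). The medians lie at 0.07, 0.09, -0.43, -0.02, 0.07 and 0.08 from left to right.

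Genes that the transcription factor ATF4 raises when amino acids are short were listed with ATF4 itself and a kinase upstream of it. The list had 14 tested members of 24, of which 0 passed the edgeR test. Their median difference was -0.02, with 5 positive and 9 negative, whereas the median of fitted log2 fold changes was 0.06, with 8 positive and 6 negative, and -0.49 when replicate 2 labelled Themis1-T-/- was dropped. Shmt2, of mitochondrial serine and glycine metabolism, had 136 and 66.9 CPM in the libraries labelled Themis1-T-/-, against 195 and 245 CPM in the Vav1R63W libraries (edgeR adjusted p = 1.000). Aldh18a1, of proline synthesis, had 144 and 129 CPM in the libraries labelled Themis1-T-/-, against 238 and 151 CPM in the Vav1R63W libraries. Phgdh, the entry enzyme of serine synthesis, had 325 and 432 CPM in the libraries labelled Themis1-T-/-, against 262 and 347 CPM in the Vav1R63W libraries. The groups of Shmt2 and Aldh18a1 do not overlap and those of Phgdh do. Groups did not overlap for 7 of the 14 list members (50%), against 33.8% of all tested genes. In the other lists that share was 40% of the other carriers, 27.3% for mTORC1 sensing, 25% of the synthetases and 33.3% of the breakdown enzymes.

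The 20 cytosolic aminoacyl-tRNA synthetases, which load amino acids onto tRNA, were all tested, and 0 passed the edgeR test, with 11 positive, 9 negative and a median difference of 0.07. The fitted median was 0.02 both with all libraries and when replicate 2 labelled Themis1-T-/- was dropped. Farsb, of phenylalanine loading, had 109 and 122 CPM in the libraries labelled Themis1-T-/-, against 199 and 216 CPM in the Vav1R63W libraries, a log2 fold change of -0.82 ± 0.23 (SE; edgeR adjusted p = 0.900). Eprs, of glutamate and proline loading, had 117 and 209 CPM in the libraries labelled Themis1-T-/-, against 72.7 and 44.5 CPM in the Vav1R63W libraries, a log2 fold change of 1.51 ± 0.46 (SE; edgeR adjusted p = 0.900). The authors' deposited table called both, Eprs higher (adjusted p = 0.0362) and Farsb lower (0.0209), and DESeq2 called neither. That table called 1.56% of all genes with an adjusted p. Dars, of aspartate loading, had 308 and 326 CPM in the libraries labelled Themis1-T-/-, against 245 and 234 CPM in the Vav1R63W libraries. Nars, of asparagine loading, had 249 and 218 CPM in the libraries labelled Themis1-T-/-, against 309 and 153 CPM in the Vav1R63W libraries, and its groups overlap.

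Enzymes of amino acid breakdown and conversion had 18 tested members of 20, with 0 passing the edgeR test, 11 positive, 7 negative and a median difference of 0.08. The fitted median was 0.12 with all libraries and -0.30 when replicate 2 labelled Themis1-T-/- was dropped. Glud1, which turns glutamate into a citric acid cycle intermediate, had 179 and 158 CPM in the libraries labelled Themis1-T-/-, against 207 and 237 CPM in the Vav1R63W libraries. Dld, a subunit of branched-chain keto acid dehydrogenase and related complexes, had 95.5 and 86.0 CPM in the libraries labelled Themis1-T-/-, against 62.5 and 59.1 CPM in the Vav1R63W libraries. Oat, of ornithine breakdown, had 167 and 107.5 CPM in the libraries labelled Themis1-T-/-, against 198 and 184 CPM in the Vav1R63W libraries. The groups do not overlap for these 3 genes, which are among 6 such genes of the 18 (33.3%), near the 33.8% of all tested genes. None of the 3 passed the edgeR test (adjusted p = 1.000 each).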

How the data were processed

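Trim Galore removed adaptors and poly-A, STAR aligned the reads, and FastQC and MultiQC checked them, according to the design text and the submitters' processing notes. The design text names Ensembl release 90 and the processing notes name mm9; tool versions are not given in the sources used here. The deposited files hold raw read counts of each gene, ignoring strand and by strand, in the layout STAR writes. The authors' deposited table adds a fold change as a ratio and on the log2 scale, with p-values from DESeq2 run through SARTools, per the file headers and the design text; its rounded normalized scores, made by the authors, were not used. Its raw counts equal the unstranded column for all 52636 genes. The summary lines of reads not assigned to a gene held 21.1% to 23.1% of reads and were left out.

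Groups came from the titles. Nothing in the labels ties replicates to separate mice, so a p-value here reflects sample-to-sample spread that may be technical. Counts were fitted over all genes with edgeR 4.0.16 in R 4.3.3 (TMM, filterByExpr with minimum count 10 and total 15, robust quasi-likelihood F test, two-sided, no block), with Benjamini-Hochberg adjusted p under 0.05 as a call. The SE was obtained from the fold change and its F statistic. CPM is over all reads assigned to genes. Symbols matched 52403 IDs, and exon lengths and positions are GENCODE M21 (GRCm38), which was not used for counting. List differences use log2 CPM with a prior count of 2. Alternatives were DESeq2 1.42.0, limma-voom (limma 3.58.1), other scalings and filters, the strand columns, a replicate block and leaving out each library. The edgeR step was run on simulated data with large planted fold changes, as a check of the code. That run does not measure its power in these data. The transporters, lists and alternatives were chosen with earlier results of these data known; motifs and the limits of 1 and 200 reads were chosen after seeing values. Of each related list, the pair of members with the smallest p and the pair with the highest CPM are named, except for some genes that are not reported here; genes without reads, Foxp3 and other markers are named outside that rule. Intervals and floors cover counting error at most. They treat reads as independent, which PCR copies are not, so they may be too narrow.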

Additional observations from a re-analysis of the deposited data

How the results depend on the processing

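The edgeR count of 0 genes called held under other scalings, filters, count columns, the replicate block (0 genes) and limma-voom, and with each library left out (0 to 0 genes), whereas DESeq2 called 206 genes. The count of transporters called, 0 with edgeR, was 0 to 0 with a library left out and 1 with DESeq2, which called Slc43a2, the gene selected on these counts, so that call is no test. The labels do not say what a replicate number shares, and the block changed no call.

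With all libraries kept, 87 of 90 transporter fold changes kept their sign and their side of the threshold. Slc3a2 turned to -0.02 with library totals only, and Slc38a10 to -0.01 with the replicate block; the cause was not tested. With a library left out, 11 of 40 turned sign. The log2 fold changes then ran from -0.25 to 0.18 for Slc7a5, -0.43 to 0.62 for Slc3a2, -0.69 to 0.81 for Slc1a5, -0.70 to 0.76 for Slc38a1, -1.05 to 0.19 for Slc38a2, -0.47 to 1.75 for Slc7a6, -0.30 to 0.87 for Slc7a1 and -0.49 to 0.45 for Slc38a10. Slc43a2 ran from -9.97 to -7.61 and was -1.30 with the strand columns summed and -1.36 in the strand column with more reads, since these keep the reads shared with Gm45606. Of the 20 group means in CPM, 19 moved by less than 1 SD with TMM totals and 18 with the strand columns summed. A lone library left in a group is assumed to vary like the others.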
